A study of Mus musculus with 30 samples.

Results

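Medium spiny neurons are the projection neurons of the striatum, and 9 genes used as their markers were followed here through bulk RNA sequencing of mouse prefrontal cortex: Drd1, Drd2, Adora2a, Ppp1r1b, Rgs9, Penk, Tac1, Pde10a and Six3. They were chosen by symbol, as a measure of neighbouring striatum in a cortical dissection, and are 9 of the 18240 genes in the deposited table. All 9 had a mean of at least 10 normalized counts over the 30 libraries and were tested. The mice were C57BL/6J at postnatal day 40, and each library is labelled heterozygous (HT) for Adnp, a homeobox gene whose protein takes part in chromatin remodelling, or wild type (WT). The libraries labelled HT came from mice given fluoxetine, a serotonin reuptake inhibitor (4 female and 4 male libraries), lithium, a mood stabiliser (3 female and 4 male), or vehicle (4 female and 3 male). The libraries labelled WT all came from vehicle mice (4 female and 4 male), so neither drug was given to WT mice in these data. The sources used here give no drug dose, no length of treatment and no description of what the mutant allele lacks. The labels do not say that replicates are separate mice, so each p-value reflects variation among libraries that may be technical.

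The 9 genes varied together from library to library, over ranges from 6.51-fold (Pde10a) to 82.4-fold (Drd2), with no Six3 read counted in 5 of them. The same 8 libraries held the 8 highest values of all 9 genes: HT fluoxetine females 2 and 4, HT lithium female 2, HT vehicle female 4, HT vehicle males 1 and 3, and WT vehicle males 1 and 3. None of the 9 differed between genotypes, drugs or sexes past an adjusted p of 0.05 (limma). Of the 16824 genes tested, 0.731% did for genotype, 0.0357% for fluoxetine, 0.0892% for lithium, 0% between drugs and 0.214% between sexes. Removing the group means left correlations between 0.880 and 0.993 in the 36 pairs of members, and 165 other genes followed the members at a correlation of at least 0.9.

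Medium spiny neurons are inhibitory cells that make up most of the striatum, which lies beneath the frontal cortex. Neurons of the direct pathway carry the dopamine receptor D1 and make substance P, whereas neurons of the indirect pathway carry the dopamine receptor D2 and the adenosine receptor encoded by Adora2a and make enkephalin. In both, dopamine acts through cyclic AMP, which PDE10A breaks down and which controls DARPP-32, the product of Ppp1r1b. Cortex itself holds cells that express some of the members, among them Drd1, Penk, Tac1 and Pde10a, so a level above 0 in cortex is known background for these genes.

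The letters before the start sites of members are shown for a direct-pathway receptor, an indirect-pathway receptor and a peptide. Any part of these letters in the joint variation of the members was not tested. The RefSeq promoter table on GRCm38.p6 (250 bases before to 50 bases after each start) held 8 promoters for 6 of the 9 members. The GC box GGGCGG, searched on both strands and printed in capitals, was present in 7 of the 8, covering 5 genes, against 35.7% of the 32851 promoters in the table. The cyclic AMP response element TGACGTCA, searched on both strands, was in 0 of the 8 and in 1.79% of all promoters. Its core TGACG, which lies inside the full element, was in 1 of the 8 (Tac1, with 2 matches) and in 20.8% of all promoters. A match is a run of letters and was not tested as a binding site. The windows below are Drd1 on the minus strand at chr13:54055609-54055908, Drd2 on the plus strand at chr9:49340153-49340452 and Tac1 on the plus strand at chr6:7554811-7555110, each written 5′ to 3′.
Drd1: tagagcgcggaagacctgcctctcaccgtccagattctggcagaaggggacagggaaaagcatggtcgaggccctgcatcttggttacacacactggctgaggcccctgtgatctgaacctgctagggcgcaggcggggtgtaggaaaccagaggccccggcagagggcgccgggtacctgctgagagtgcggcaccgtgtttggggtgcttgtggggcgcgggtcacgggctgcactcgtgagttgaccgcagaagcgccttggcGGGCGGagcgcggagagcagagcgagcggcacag
Drd2: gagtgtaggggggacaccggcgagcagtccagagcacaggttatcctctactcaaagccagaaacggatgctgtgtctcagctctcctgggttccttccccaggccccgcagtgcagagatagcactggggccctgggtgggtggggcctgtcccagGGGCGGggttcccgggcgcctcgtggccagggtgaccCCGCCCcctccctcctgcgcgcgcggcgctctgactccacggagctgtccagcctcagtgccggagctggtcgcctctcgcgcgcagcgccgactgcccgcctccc
Tac1: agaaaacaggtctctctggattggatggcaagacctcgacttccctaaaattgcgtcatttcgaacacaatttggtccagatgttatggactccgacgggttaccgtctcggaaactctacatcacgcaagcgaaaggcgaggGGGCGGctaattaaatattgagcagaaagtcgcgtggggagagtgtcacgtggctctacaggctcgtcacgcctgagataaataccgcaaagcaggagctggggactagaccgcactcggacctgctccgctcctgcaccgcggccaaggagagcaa
Drd1 and Tac1 each carry 1 GC box and Drd2 carries 2, while the Six3 window carries none.

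The libraries held 23771758 to 34307061 reads in genes, and values are the authors' normalized counts, which are reads divided by 1 size factor per library. Adnp itself stood at 1886 to 2469 normalized counts in HT fluoxetine libraries, 1889 to 2324 in HT lithium libraries, 2076 to 2491 in HT vehicle libraries and 1703 to 2228 in WT vehicle libraries. Its level was thus not lower in libraries labelled HT, and without knowing which part the allele lacks a whole-gene count does not check the genotype labels. Genotypes below are those of the labels. Slc17a7, the vesicular glutamate transporter of cortical excitatory neurons, stood at 33543 to 55735 normalized counts in every library.

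The receptors are described first, beginning with that of the direct pathway. Drd1 (chr13:54051183-54055705, minus strand), which encodes the dopamine receptor D1, had 130.3, 1522, 159.6 and 1668 in females and 126, 531, 334 and 149 in males in HT fluoxetine libraries, in normalized counts. It had 403, 657 and 158 in females and 141, 229, 155 and 100.1 in males in HT lithium libraries. Values in HT vehicle libraries were 122, 261, 138 and 1117 in females and 987, 177 and 1115 in males, against 608, 138, 344 and 513 in females and 851, 178, 1119 and 166 in males in WT vehicle libraries. High and low libraries stood side by side in 7 of the 8 groups, and only the HT lithium males were low throughout. The highest value, in HT fluoxetine female 4, was 16.7 times the lowest, in HT lithium male 4.

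Drd2 (chr9:49340627-49408177, plus strand), the dopamine receptor of the indirect pathway, had 28.5, 1029.6, 21.95 and 1200.1 in females and 30.96, 239, 82.5 and 31.7 in males in HT fluoxetine libraries and 148, 332 and 25.6 in females and 24.3, 32.6, 21.8 and 49.5 in males in HT lithium libraries. It had 29.6, 40.03, 25.03 and 688 in females and 688, 26.8 and 653 in males in HT vehicle libraries, against 266, 23.6, 59.6 and 182 in females and 416, 17.1, 713 and 14.6 in males in WT vehicle libraries. The range was 82.4-fold, the widest of the members with a count in every library. HT fluoxetine libraries averaged 333 ± 489.9 (n = 8), HT lithium libraries 90.6 ± 116 (n = 7), HT vehicle libraries 307 ± 346 (n = 7) and WT vehicle libraries 212 ± 248 (n = 8). Each SD exceeded its mean, and from the highest mean (HT fluoxetine) through HT vehicle and WT vehicle to the lowest (HT lithium) no neighbours differed beyond their spread.

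Adora2a (chr10:75316877-75334784, plus strand), the adenosine receptor that sits beside Drd2 on indirect-pathway neurons, ran from 72.8 normalized counts in WT vehicle male 2 to 1714 in HT fluoxetine female 4, with a median of 121. In HT fluoxetine males it had 100.03, 375, 119 and 96.3, so that a single library carried most of that group's signal. In HT vehicle males it had 971, 92.9 and 1031, a pattern of 2 high libraries and 1 low library that all other members shared.

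The members that act downstream of the receptors had higher floors. Ppp1r1b (chr11:98348404-98357796, plus strand), which encodes DARPP-32, an inhibitor of protein phosphatase 1, ran from 1120.0 normalized counts in HT lithium male 4 to 9400.2 in HT fluoxetine female 4, an 8.39-fold range with a median of 1829. Rgs9 (chr11:109225355-109298129, minus strand), whose product speeds the shut-off of G protein signals behind dopamine receptors, ran from 329.8 to 3703 with a median of 515. Pde10a (chr17:8525372-8986648, plus strand), the phosphodiesterase that degrades cyclic AMP and cyclic GMP in these neurons, ran from 1719 to 11196 with a median of 2727. Per kilobase of exon, Ppp1r1b averaged 1039.6 normalized counts, above Pde10a at 306 and Rgs9 at 171. On the same scale Drd1 averaged 131, Adora2a 124 and Drd2 93.5, which put the receptors below the signalling genes. Ppp1r1b shares 460 exonic bases with 1700003D09Rik on the opposite strand, and whether counting used strand is not given in the sources used here, so that reads in that stretch are uncertain.

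Penk (chr4:4133531-4138819, minus strand), the precursor of the enkephalin peptides, had 1468, 7188, 1089.6 and 12177 in females and 1394, 2502, 1380.0 and 1433 in males in HT fluoxetine libraries. The top value lay far above the next one, 7188 in HT fluoxetine female 2, whereas for the other members these 2 libraries were closer. Per kilobase Penk was the most abundant member, at a mean of 1688 normalized counts. It shares 233 exonic bases with A830012C17Rik on the opposite strand. Tac1 (chr6:7554879-7565834, plus strand), the precursor of substance P, ran from 231 to 1517 normalized counts with a median of 349, a 6.58-fold range, and averaged 168 per kilobase.

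Six3 (chr17:85613608-85629302, plus strand) encodes a homeodomain transcription factor needed for the formation of indirect-pathway striatal neurons in mice. It was the rarest member, at a mean of 13.1 normalized counts per kilobase. It had 4.07, 309, 0 and 370.3 in females and 0, 71.2, 27.5 and 1.17 in males in HT fluoxetine libraries and 45.1, 112 and 0 in females and 0, 1.16, 3.79 and 3.37 in males in HT lithium libraries. It had 3.29, 13.7, 1.001 and 232 in females and 198, 2.87 and 187 in males in HT vehicle libraries, against 96.8, 0, 19.6 and 70.4 in females and 142, 0.857, 224 and 2.91 in males in WT vehicle libraries. In 15 of the 30 libraries the value was under 5 normalized counts, and all 8 groups held at least 1 such library. No read was counted in 5 libraries, where a count of 0 allows up to 3 reads. Over all 30 libraries, 3 reads come to 2.57 to 3.57 normalized counts. In 8 libraries, the ones named above, the value was 100 or more. Short exonic overlaps on the opposite strand, 106 bases with Six3os1 and 168 bases with Gm28528, leave some of these reads uncertain. In bulk tissue, fewer cells of a type and less RNA per cell cannot be told apart, for Six3 or any other member.

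**Figure D1:**
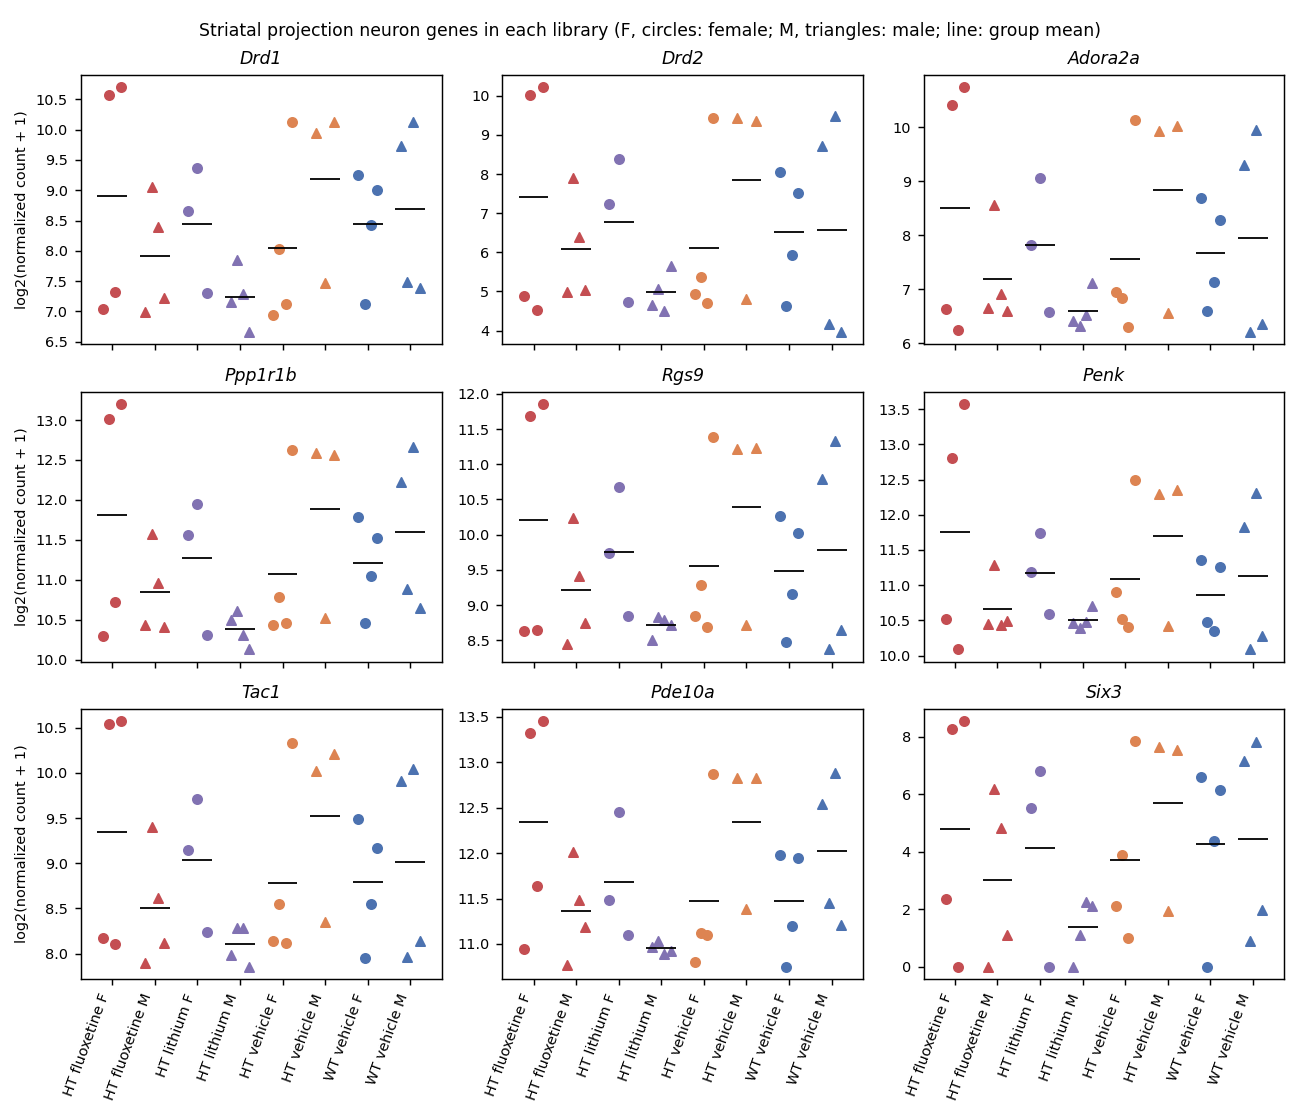
Level of each of the 9 genes, as log2(normalized count + 1) on the vertical axis, in the 30 libraries, grouped along the horizontal axis by genotype, treatment and sex (circles female, triangles male, line at the group mean). In 7 of the 8 groups high and low libraries occur together, and the 8 highest libraries are the same for every gene. The 4 HT lithium males lie low, with Six3 between 0 and 3.79 normalized counts.

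The spread inside groups was measured as the SD of log2(normalized count + 1) about the 8 group means, with 22 residual degrees of freedom. It was 3.19 for Six3, 2.18 for Drd2, 1.57 for Adora2a, 1.31 for Drd1, 1.189 for Rgs9, 0.946 for Penk, 0.939 for Ppp1r1b, 0.928 for Tac1 and 0.787 for Pde10a. The median over all 16824 genes tested was 0.134. Six3 ranked 5 and Pde10a, the least variable member, ranked 326 among the 16824 genes, and 1.93% of genes were more variable than Pde10a. Against the SD that limma's mean-variance trend gives at the same level, the members were 7.28 times (Six3) to 12.6 times (Rgs9) as variable. The share of each member's variance that lay within groups was 68.0% (Pde10a) to 84.1% (Drd2). The median gene had 73.1%, and 75.9% is what the degrees of freedom alone give, so that Pde10a alone lay below the median gene.

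**Figure D2:**
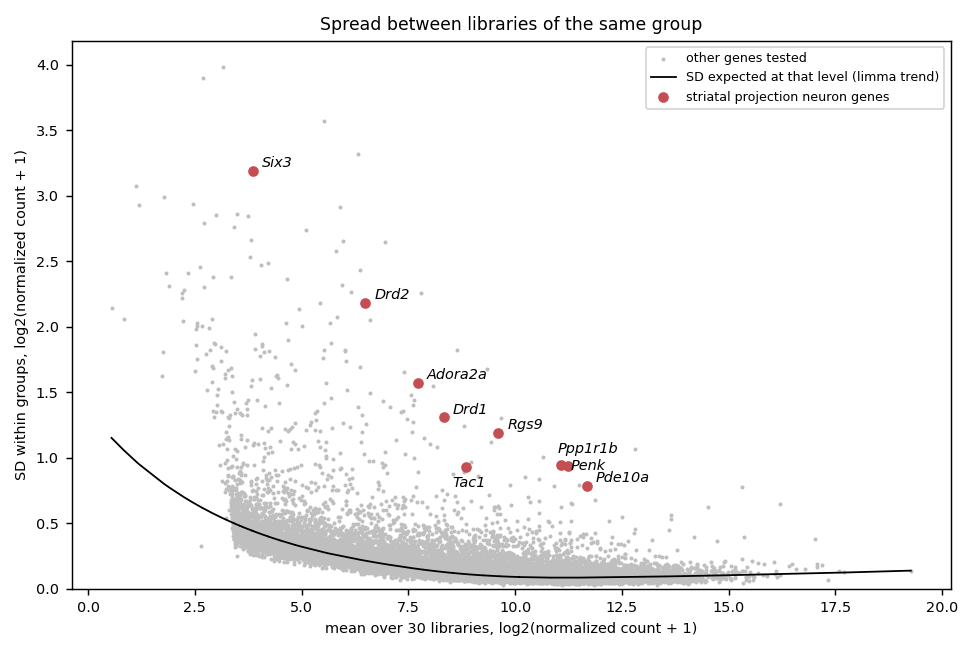
SD within groups on the vertical axis against the mean level on the horizontal axis, both of log2(normalized count + 1), for the 16824 genes tested (grey) and the 9 striatal genes (red), with the SD expected at each level from limma's trend (line). All 9 genes lie far above the line, by 7.28 to 12.6 times.

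After subtraction of group means, the 36 pairs of members had a mean Pearson r of 0.960 (SD 0.0267) and a mean Spearman rho of 0.963 over 30 libraries. The tightest pair was Rgs9 with Tac1, at r = 0.993 and rho = 0.986, with a permutation p of 1e-05 for both and 1.6e-05 after Benjamini-Hochberg adjustment over the 36 pairs. The loosest was Penk with Six3, at r = 0.880 and rho = 0.910 (two-sided permutation p = 2e-05 for both, adjusted p = 2.6e-05 and 2.2e-05). With 100000 permutations of libraries within groups the smallest p possible is 1e-05, and 22 of the 36 pairs reached it. Drd1 with Drd2, the receptors of the different pathways, had r = 0.965 and rho = 0.970 (permutation p = 2e-05 and 1e-05, adjusted p = 2.6e-05 and 1.6e-05), while Drd2 with Adora2a, which share a pathway, had r = 0.989. Drd1 with Tac1 had r = 0.988, and Adora2a with Penk had r = 0.982. No pair had an adjusted permutation p above 4e-05. The members were chosen with earlier results of these data known, so these p-values are descriptions and not separate support. Without the 2 libraries farthest from the median, HT fluoxetine female 4 and HT fluoxetine female 2, the mean r was 0.947 and the lowest 0.860. The mean r was 0.957 in HT libraries alone, 0.974 in WT libraries alone, 0.965 in females and 0.956 in males. The labels give no batch that sets libraries apart, so no values by batch were computed.

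Each member was also set against Six3 on the linear scale over all 30 libraries. A straight line on Six3 took up 99.3% of the variance of Drd2, 99.3% of that of Rgs9, 99.0% of that of Ppp1r1b, 99.0% of that of Adora2a and 98.6% of that of Drd1. It took up 97.9% for Pde10a, 96.6% for Tac1 and 92.4% for Penk. By rank the likeness was looser, with Spearman rho from 0.811 (Pde10a) to 0.926 (Tac1). Six3 was under 5 normalized counts in 15 of the 30 libraries. The line's value where Six3 is 0 is a fitted value and can differ from the levels measured there. For Drd2 it was 11.5 normalized counts, 0.955% of the highest value, whereas the 5 libraries with no Six3 read had 21.95 to 30.96 normalized counts of Drd2. For Tac1 it was 299 (19.7% of the highest value), for Pde10a 2127 (19.0%), for Ppp1r1b 1458 (15.5%), for Rgs9 413 (11.2%), for Drd1 169 (10.1%), for Penk 1162 (9.54%) and for Adora2a 70.6 (4.12%). For every 100 normalized counts of Six3 the line rose by 431 for Drd1, 317 for Drd2, 434 for Adora2a, 2219 for Ppp1r1b, 950.0 for Rgs9, 2234 for Penk, 383 for Tac1 and 2522 for Pde10a. Per kilobase of exon, the same rise was 119 for Drd1, 124 for Drd2 and 142 for Adora2a, with 113 for Tac1, 149 for Rgs9 and 196 for Pde10a. Penk (1367) and Ppp1r1b (758) rose more steeply on that scale. The Penk slope, 22.3 per count of Six3, was 18.2 without HT fluoxetine females 4 and 2, the largest such shift among the 8 lines.

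**Figure D3:**
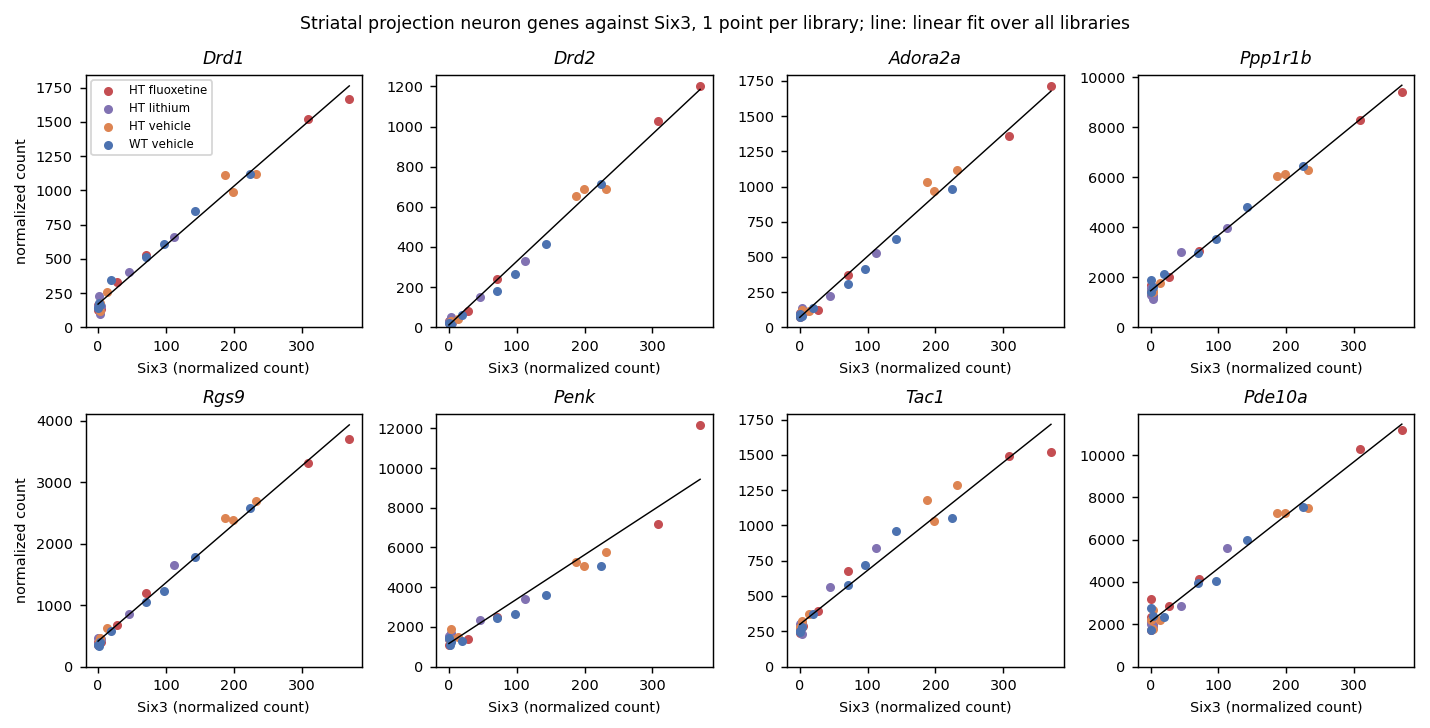
Normalized count of 8 striatal genes (vertical axes, from 0) against that of Six3 (horizontal axis), 1 point per library coloured by genotype and treatment, with the least-squares line over 30 libraries. Points of all 4 colours lie along the same lines, which meet the vertical axis at 11.5 for Drd2 and at 2127 for Pde10a.

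Likeness was then measured for the other 16815 genes as the Pearson r, across the 30 libraries with group means removed, with the mean of the 9 members. These r values are descriptions, and what makes other genes vary with the members was not tested. An r of at least 0.6 was reached by 1454 genes (8.65%) and one of at most -0.6 by 976 genes (5.80%). An r of at least 0.9 was reached by 165 genes (0.981%) and one of at most -0.9 by 21. The median gene shared 8.495% of its within-group variance with the members. In a principal component analysis of the within-group values, the first component held 26.1% of the variance and had an absolute r of 0.846 with the member mean. With genes scaled to equal variance it was the second component, with 16.9% of the variance and an absolute r of 0.876. The member mean had r = -0.178 with the log2 number of reads, 0.0717 with the summed normalized count and -0.401 with the summed mitochondrially encoded genes, each across 30 libraries.

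The 15 genes most like the members, among named genes with a mean of at least 50 normalized counts, ranged from r = 0.968 to 0.985. Dlk1, a membrane ligand related to the Notch ligands, led at r = 0.985 with 6.98 to 439 normalized counts. Gpr6, an orphan receptor of indirect-pathway neurons, followed at 0.984 with 34.02 to 504. The others include Rarb (the retinoic acid receptor of developing striatum), Rem2, Mme (neprilysin, which degrades enkephalin), Slc5a7 (the choline transporter of cholinergic neurons), Ankrd63, Lrrc10b, Gng7 (the G protein gamma subunit of striatal adenylyl cyclase signalling), Cd4, Serpina9, Ryr3, Foxp2 and Sh3rf2. Of the 15, 11 stand in lists of striatal genes used here, the exceptions being Dlk1, Rem2, Serpina9 and Ryr3. The lists were chosen with earlier results of these data known, so the 11 are not separate support. Without the 2 farthest libraries 12 of the 15 remained among the top 15, and with Six3 alone in place of the mean 3 did.

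The 5 genes most opposed to the members were Chrdl1, a secreted inhibitor of BMP signalling made by cortical astrocytes, at r = -0.968, Grm2, a presynaptic metabotropic glutamate receptor, at -0.947, Stard8 at -0.944, Tmem145 at -0.934 and Cdk14 at -0.927. Their movements were small. Chrdl1 spanned 438 to 809.7 normalized counts and fell by 0.19 on the log2 scale per log2 unit of the member mean, and Grm2 spanned 1226 to 2975 and fell by 0.22. Among genes at r of at least 0.9 the median slope was 0.28, while the 172 genes at -0.8 or less had a median slope of -0.11.

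In 5 of the 6 striatal lists most tested genes had r of at least 0.6, and the indirect-pathway list (2 of 6, median 0.354) did not. Of 13 genes of cyclic AMP and G protein signalling, 12 had r of at least 0.6, with a median of 0.953. Adcy5, the main striatal adenylyl cyclase, had r = 0.96 and 4013 to 16927 normalized counts, Gnal, the G protein that couples receptors to it, had r = 0.953, and Pde1b had r = 0.953. Itpr1, an IP3 receptor also abundant in cortex, was the exception at r = 0.288. Of 13 further projection neuron genes, 11 reached 0.6 (median 0.935), and Coch went the other way at r = -0.796. Of 10 transcription factors, 6 did: Rarb, Foxp2, Zfp503, Bcl11b (0.936), Foxp1 (0.785) and Zfp521.

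Both pathways were represented. Of 7 direct-pathway genes 4 reached r of 0.6, namely Isl1 (0.985, a transcription factor of D1 neurons, at 0 to 136 normalized counts), Chrm4 (0.886, a muscarinic receptor), Pdyn (0.877, the dynorphin precursor) and Slc35d3 (0.821). Of 6 indirect-pathway genes 2 did, Gpr6 and Upb1 (0.886), while Gucy1a1 (0.382), Ttc12, Plxdc1 and Sp9 did not. Of 10 tested genes of striatal interneurons, septum or pallidum, 7 had r of at least 0.6. They include the cholinergic genes Chat (0.953, 9.31 to 145 normalized counts), Slc5a7 and Slc18a3, their transcription factor Lhx8 (0.965, 0 to 152), the dopamine receptor Drd3 (0.968, 0 to 64.6), which is known from ventral striatum, Ecel1 and Gpr101. Zic1 (0.0228), Zic4 (-0.0491) and Trpc4 (-0.204) did not follow.

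Markers of other cells followed the members too. All 8 oligodendrocyte genes had r of at least 0.6 (median 0.877, lowest 0.745 for Aspa), among them Mbp (23841 to 66492 normalized counts), which encodes myelin basic protein. The sum of the 8 was 59546 to 133546 in HT fluoxetine females, 51948 to 100269 in HT fluoxetine males, 77663 to 114315 in HT lithium females and 74246 to 81974 in HT lithium males. It was 61629 to 107294 in HT vehicle females, 97809 to 119385 in HT vehicle males, 60730.0 to 102609 in WT vehicle females and 66218 to 137076 in WT vehicle males. White matter runs between cortex and striatum, and its part in these values was not tested. Of 4 tested choroid plexus genes 3 had r of at least 0.6, with Clic6 at 0.921 (9.42 to 263 normalized counts), but Ttr, the most specific of them, had -0.267.

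Of 13 genes of olfactory bulb and neuroblasts, the other neighbours of frontal cortex, 0 had r of at least 0.6 and 3 had r of at most -0.6: Shisa3, Dcx (-0.651) and Tbx21 (-0.704, a transcription factor of mitral and tufted cells). The list's median r was -0.567, and its sum ranged over 5081 to 30018 normalized counts. Astrocyte, microglial and endothelial lists had median r values of -0.449, -0.482 and -0.424, with 2 of 6, 1 of 6 and 1 of 5 genes at -0.6 or less.

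Cortical genes fell on both sides. Of 16 excitatory genes 4 had r of at least 0.6, the deep-layer genes Foxp2, Tle4 (0.902, 765 to 1540.0 normalized counts) and Nr4a2 (0.886, 394 to 1243) together with Otof (0.696). The 4 genes at -0.6 or less included Cux2 (-0.882, 2210.4 to 4059), Lamp5 (-0.865) and Rasgrf2 (-0.89), markers of upper layers, and Emx1 (-0.739). The pan-excitatory gene Slc17a7 had r = -0.289, and the list's summed level ranged from 58509.7 to 91989 normalized counts. Among 11 interneuron genes Gad2 (0.819), Slc32a1 (0.728), Lhx6 (0.705) and Sst (0.637) were at 0.6 or above, while Vip (-0.856), Htr3a (-0.849), Cck (-0.824) and Npy (-0.604) were at -0.6 or below. Gad2, Slc32a1 and Gad1, which make or load GABA, are also expressed by striatal neurons, but Gad1 had r = -0.202. Foxp2 stands in the striatal list as well.

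**Figure D4:**
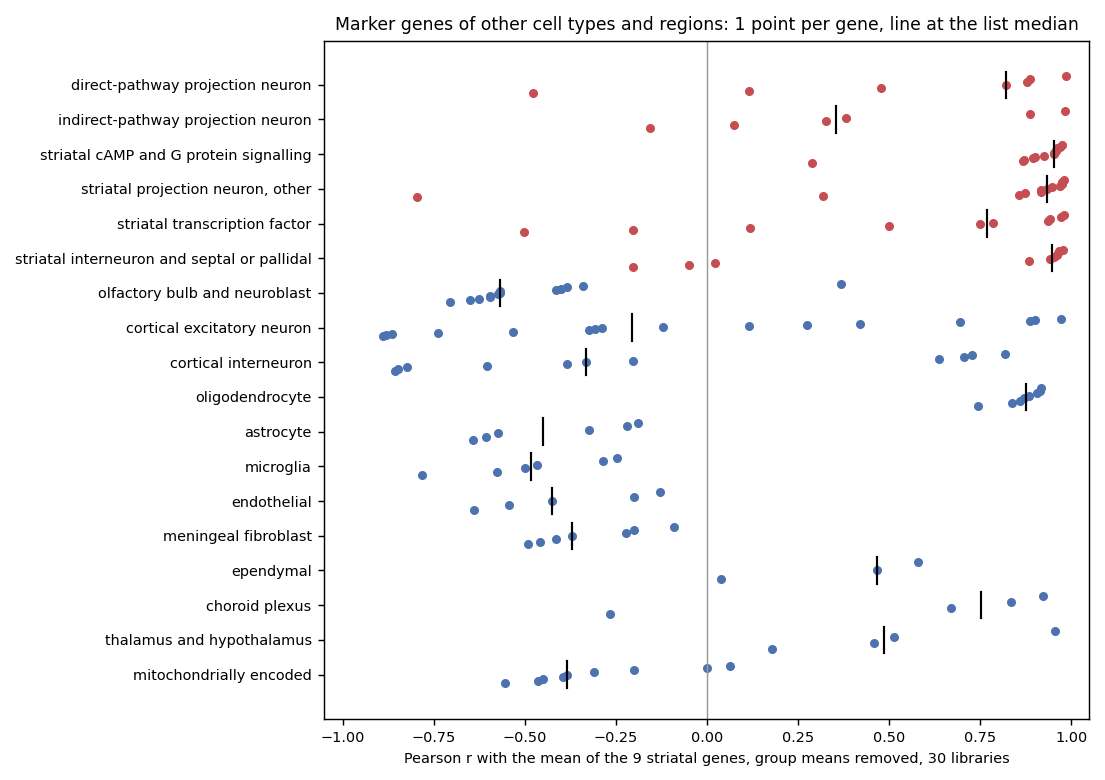
Pearson r with the mean of the 9 striatal genes (horizontal axis, group means removed, 30 libraries) for each gene of 18 marker lists (1 point per gene, line at the list median), striatal lists in red and other lists in blue. The oligodendrocyte list is high throughout (median 0.877), the olfactory bulb list is mostly negative (median -0.567), and the cortical lists hold genes of both signs.

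The question behind the genotype comparison is how the prefrontal transcriptome of Adnp heterozygotes differs. Of the 9 members 0 passed an adjusted p of 0.05 (limma) in HT vehicle against WT vehicle libraries, where 0.731% of the 16824 genes did. At an unadjusted p under 0.05 the count was also 0 with limma (6.6% of all genes), edgeR and DESeq2. All 9 estimates were positive, from 0.05 (Drd1) to 0.43 (Drd2) on the log2 scale, with a median of 0.34 against a median of -0.001 over all genes. Because the members vary together within groups, shared signs are not separate observations, here or in the comparisons below. Drd2 had a log2 fold change of 0.43 ± 1.13 (SE; 95% interval -1.91 to 2.76), and Pde10a, the most precise, had 0.16 ± 0.41 (SE; 95% interval -0.68 to 1.003). These intervals hold both a fall and a rise of more than 1.5-fold, so changes of that size were not detectable. By sex, 6 of the 9 estimates were negative in females, from -0.57 (Six3) to 0.22 (Penk) over the 9, and all 9 were positive in males, from 0.28 (Ppp1r1b) to 1.28 (Drd2). The signs also depended on single libraries: without HT vehicle female 4, Drd1 had -0.29 and Drd2 -0.13. The members were 0 of 9 in females, where 0.256% of genes were called and 5.17% had an unadjusted p under 0.05, and 0 of 9 in males, where 0.226% were called and 4.32% had such a p. The difference between the sexes called 0 of 9 members and 0% of genes, with 2.05% of genes at an unadjusted p under 0.05.

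Fluoxetine was compared with vehicle inside the HT genotype. Again 0 of 9 members were called, against 0.0357% of all genes, and 0 had an unadjusted p under 0.05 with limma (2.63% of all genes), edgeR or DESeq2. Drd1 averaged 578 ± 644 normalized counts in HT fluoxetine libraries (n = 8) and 559.7 ± 484 in HT vehicle libraries (n = 7; SD), and its log2 fold change was -0.21 ± 0.67 (SE; 95% interval -1.60 to 1.192). The estimate averages logarithms within each sex, and its sign therefore differs from that of the difference in means. The 9 estimates ran from -0.80 (Six3) to -0.05 (Pde10a), with a median of -0.23. By sex the estimates had opposite signs, from 0.56 to 1.30 in females and from -2.68 to -0.98 in males. In neither sex was a member called, against 0% of genes in females (3.85% at an unadjusted p under 0.05) and 0.0178% in males (4.07%). The test of the difference itself, females minus males, called 0 of 9 members and 0% of genes. In it Pde10a had 1.85 ± 0.81 (SE; 95% interval 0.16 to 3.53), with an unadjusted p of 0.0329 and an adjusted p of 0.779. The count of members with an unadjusted p under 0.05 was 1 with limma (5.96% of all genes), 4 with edgeR (6.33%) and 8 with DESeq2 (6.18%), and 0 were called by any of the 3. As the members vary together, such counts are not of separate events.

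With lithium the estimates were negative for all 9 members, and none passed the test. Of the 9, 0 were called in HT lithium against HT vehicle libraries, where 0.0892% of genes were, with estimates from -1.97 (Six3) to -0.55 (Penk). At an unadjusted p under 0.05 the count was 0 with limma (5.72% of all genes), 0 with edgeR (5.68%) and 3 with DESeq2 (5.44%). By sex, the negative estimates were those of males. Pde10a had 2001, 2093, 1892 and 1935 normalized counts in HT lithium males, against 7269, 2666 and 7249.5 in HT vehicle males. Tac1 had 252, 311, 312 and 231 in HT lithium males, against 1034, 325 and 1181 in HT vehicle males. For these 2 of the 9 members the groups did not overlap, as for 10% of all genes tested in this comparison. For the other 7 members HT vehicle male 2 lay inside the range of the HT lithium males.

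In males the log2 fold change with lithium was -1.39 ± 0.60 (SE; 95% interval -2.63 to -0.16) for Pde10a (unadjusted p = 0.0288, limma adjusted p = 0.337) and -1.50 ± 0.71 (SE; 95% interval -2.98 to -0.03) for Ppp1r1b (unadjusted p = 0.0459, limma adjusted p = 0.357). Six3 had -4.34 ± 2.41 (SE; 95% interval -9.34 to 0.66), where the added count of 1 makes the change of so rare a gene look smaller than it is. No member was called, against 0.0773% of genes. The members with an unadjusted p under 0.05 numbered 2 with limma (13.8% of all genes), 8 with edgeR (14.3%) and 9 with DESeq2 (14.3%). Since the members vary together within groups, these are not separate events, and the counts do not show an excess over all genes. In females the estimates had the other sign, from 0.09 to 0.67, with 0 of 9 and 0% of genes called and 3.55% of genes at an unadjusted p under 0.05. The difference between the sexes called 0 of 9 members and 0% of genes, with a smallest limma adjusted p of 0.504. In it the members at an unadjusted p under 0.05 numbered 0 with limma (10% of all genes), 0 with edgeR (10.1%) and 1 with DESeq2 (10.1%). Both drugs were set against the same HT vehicle libraries, so their estimates are not independent. Beside the member values in males, the summed oligodendrocyte genes stood at 74246 to 81974 in HT lithium males and 97809 to 119385 in HT vehicle males, and the summed olfactory bulb genes at 9505 to 30018 in HT lithium males and 5468 to 11182 in HT vehicle males. The meningeal fibroblast genes summed to 5608 to 12157 in HT lithium males and 3959 to 5389.9 in HT vehicle males, so that these ranges, like the oligodendrocyte ones, did not overlap. The part of these lists in the member differences was not tested.

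**Figure D5:**
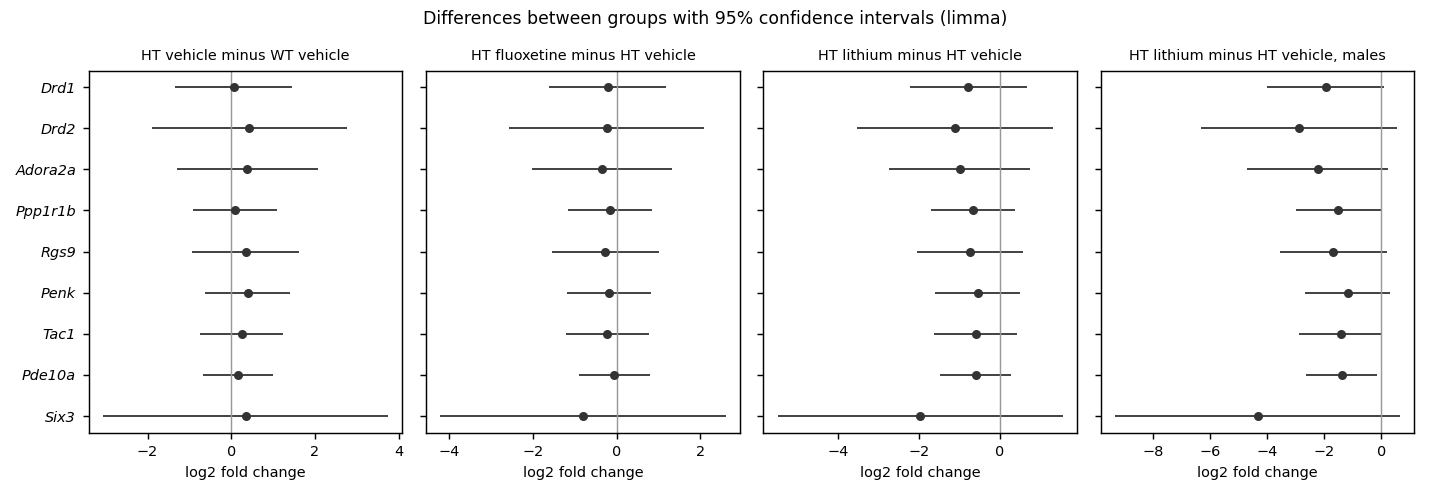
Log2 fold changes of the 9 genes (points) with 95% confidence intervals (bars) from limma, for HT vehicle minus WT vehicle, HT fluoxetine minus HT vehicle and HT lithium minus HT vehicle over both sexes, and for HT lithium minus HT vehicle in males. In the first 3 panels every interval crosses 0, and in males those of Pde10a (-2.63 to -0.16) and Ppp1r1b (-2.98 to -0.03) do not, although neither passed adjustment over all genes.

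HT fluoxetine against HT lithium libraries called 0 of 9 members and 0% of genes, with 0 members at an unadjusted p under 0.05 in limma (6.86% of all genes), edgeR and DESeq2. Female against male libraries called 0 of 9, against 0.214% of genes, with 0 members at an unadjusted p under 0.05 in limma (8.05% of all genes), edgeR and DESeq2. The F test over all 8 groups called 0 of 9, against 1.21% of genes, with a smallest unadjusted p of 0.218 in limma. At an unadjusted p under 0.05 it had 0 members with limma (11.2% of all genes), 0 with edgeR (11.8%) and 3 with DESeq2 (13.4%). In the 10 comparisons where no member reached an unadjusted p of 0.05 with any of the 3 tools, these gave such a p to 1.65% to 8.1% of all genes. No gene of the 6 striatal lists, or of the other lists of cell types, passed the adjusted threshold in the genotype, fluoxetine, lithium, drug or sex comparisons averaged over sexes.

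The genes called in these comparisons were set against the members' variation. Of the 123 genes called for genotype, 13 (10.6%) had an absolute r of at least 0.6 with the member mean, against 14.5% of the 16692 other genes that were not called. Of the 6 called for fluoxetine and the 15 called for lithium, 0 did. Variation shared with the members adds to a gene's spread within groups, which makes a call less likely. These shares therefore do not show whether the called genes are free of that variation. When the member mean was added to the model as a covariate, a step chosen after seeing the data, the genotype comparison called 200 non-member genes and retained all 123. Fluoxetine then had 9 calls instead of 6, with the same 6 among them, lithium 16 instead of 15, with 14 in both, and female against male 79 instead of 36, with all 36 retained. The F test called 284 instead of 204 genes, of which 197 were in both.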

How the data were processed

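The mRNA of prefrontal cortex was sequenced in 30 libraries with a stranded kit, per the labels' protocols. The submitters' processing notes list Salmon 0.11.2, R 3.6.0, DESeq2 1.19.11 and GRCm38. The deposited table holds the authors' normalized counts: each value is a signal that equals a gene's reads over a factor common to its library, since whole reads were recovered for 100% of values (within 0.01). GENCODE M21 gave a symbol to 18227 of 18240 IDs.

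Genes with a mean of at least 10 (16824) were tested with limma 3.58.1 (trend, robust) on log2(value + 1), with a mean for each of 8 groups and Benjamini-Hochberg adjustment over all genes. edgeR 4.0.16 and DESeq2 1.42.0 on recovered reads, a pseudocount of 5, no filter, TMM scaling, a replicate block, fits of the compared groups alone and leaving out libraries were alternatives. The limma fit of the genotype comparison and the likeness measure were tested on simulated data, and the other fits were not. Same-numbered libraries correlated at over 0.1 in all pairs only for genotype in males (0.170, 0.185 and 0.278). Named genes were all members, the 15 most and 5 least like them, and up to 4 called genes of each list, of which there were 0. HT lithium females are numbered 1, 2 and 3 in the titles, which were used, and 1, 3 and 4 in the library names, and with the library names' numbers the genotype pairs in males were still the only such set. The members and lists were chosen with earlier results of these data known. The rule for the members speaks of 10 genes and lists 9. Protein sequences were not used here, and 1 gene that the naming rule picked is not reported here.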

Additional observations from a re-analysis of the deposited data

Results flagged for a closer look

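In groups of 4 libraries the highest or lowest value was compared with its nearest neighbour (Dixon's test at the 95% level) in 54 combinations of 9 members and 6 groups, and 11 values stood apart. Chance alone gives about 1 in 20, and the members are correlated, so the 11 are not separate events. HT vehicle female 4 stood above the other 3 HT vehicle females for all 9 members, with 1117 normalized counts of Drd1, 688 of Drd2, 1118 of Adora2a, 6303 of Ppp1r1b and 2690.4 of Rgs9. The same library had 5765 of Penk, 1288 of Tac1, 7490.4 of Pde10a and 232 of Six3. HT fluoxetine male 2 stood above the other HT fluoxetine males for Adora2a (375) and Penk (2502).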

How the results depend on the processing

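No member was called in any of the 355 fits of the 15 comparisons, and the smallest adjusted p of a member was 0.182, against 0.337 as fitted. The replicate block left 0 of 9 members called in every comparison, changed no other call of a member, and gave a mean pairwise r of 0.964, beside 0.960 without it. With the replicate numbers of the library names, a block chosen after seeing the data, 0 members were called in every comparison and the mean pairwise r was 0.966. Called genes of any kind numbered 123 for genotype, 6 for fluoxetine and 15 for lithium with limma, 123, 5 and 15 with edgeR, and 144, 12 and 18 with DESeq2. DESeq2 also called 14 genes between the drugs, against 0 with limma, 79 against 36 between the sexes, 526 against 204 in the F test, 43 against 13 for lithium in males, 10 against 3 for fluoxetine in males, and 2, 3 and 1 against 0 for fluoxetine in females, lithium in females and the sex difference of fluoxetine. The mean pairwise r stayed between 0.954 and 0.964 when single libraries were left out. Of 639 alternative values of the 27 member fold changes, 50 had the other sign, all when 1 library was left out, and lithium estimates stayed negative throughout. Leaving out single libraries gave genotype estimates of -0.29 to 0.48 for Drd1, -0.13 to 1.194 for Drd2, -0.0507 to 0.95 for Adora2a, -0.18 to 0.42 for Ppp1r1b, 0.0334 to 0.76 for Rgs9, 0.16 to 0.71 for Penk, -0.00522 to 0.55 for Tac1, -0.0721 to 0.40 for Pde10a and -0.37 to 1.28 for Six3. It gave fluoxetine estimates of -0.63 to 0.14 for Drd1, -1.004 to 0.32 for Drd2, -0.92 to 0.0823 for Adora2a, -0.50 to 0.0994 for Ppp1r1b, -0.68 to 0.0397 for Rgs9, -0.50 to 0.0956 for Penk, -0.52 to 0.0313 for Tac1, -0.30 to 0.18 for Pde10a and -1.74 to -0.00476 for Six3, and lithium estimates of -1.21 to -0.43 for Drd1, -1.87 to -0.55 for Drd2, -1.56 to -0.56 for Adora2a, -0.995 to -0.40 for Ppp1r1b, -1.16 to -0.43 for Rgs9, -0.87 to -0.31 for Penk, -0.88 to -0.33 for Tac1, -0.83 to -0.36 for Pde10a and -2.91 to -0.94 for Six3. Most extremes came without HT vehicle female 4 or HT vehicle male 2, the exceptions being Six3 for genotype (lowest without WT vehicle female 2), Penk and Six3 for fluoxetine (highest without HT fluoxetine female 3) and Six3 for lithium (highest without HT lithium female 3). Depth limits Six3, which had under 5 normalized counts in 15 libraries, while the other members had at least 14.6 normalized counts in each library.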
